A study of Malus domestica with 9 samples.

Results

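The most abundant transcripts of apple peel (Malus domestica) were taken as the genes whose mean level over all 9 libraries was at least 500 FPKM. FPKM is the number of sequenced fragments divided by the length of the transcript and by a scaling factor of the library. The rule found 88 of the 46558 genes in the deposited table, or 0.189% of them. The 88 genes are called members here. Their levels chose them, so their levels and their share of the transcriptome are given as a description, without a test.

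Fruit had grown in bags, and peel was taken at 0 h, at 6 h and at 24 h of light once the bags were off. Each time had 3 libraries, which the submitters call biological replicates. The labels give the tissue and the time, and no cultivar, tree or number of fruit behind a library, so the p-values reflect how much these libraries varied. The study followed the peel as its colour turned to red. Bagged fruit was not sampled at the later times, so light, bag removal and time of day cannot be told apart.

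In plant tissue a small set of genes supplies a large part of the messenger RNA, and the members of that set differ between organs and with the state of the cell. Apple peel is made of the waxy cuticle, the epidermis and a few cell layers under it. When bagged fruit meets light, the peel makes red anthocyanin pigments from the phenylpropanoid pathway, and its transcript levels change within hours. FPKM are relative values, so the level of a gene also depends on the factor by which its library was scaled. In RNA from whole peel, fewer cells of a type and less RNA per cell cannot be told apart.

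The deposited table carries locus identifiers alone, and 0 of them matched the gene table at hand. No function, position or sequence is therefore given for a member, and the tissue could not be checked against marker genes. The libraries held 15.3 to 19.5 M reads in genes, and a member had a median of 16342.5 reads in a library. The third 24 h library stood apart. It had the most reads in genes, 19.5 M, and the lowest scaling factor, 16.2 M. Its summed FPKM was 870488, against 704706 and 704052 in the other 24 h libraries, and it listed 173 genes at 500 FPKM or more, against 97 and 94. The other 24 h libraries also had higher sums than every 0 h and 6 h library, which ran from 635836 to 678451. The sums thus still differ between times when the third 24 h library is left out. Of the 88 members, 81 were highest of the 3 libraries in the third 24 h library, or 92.0%. The same held for 85.4% of the genes of 100 to 500 FPKM and for 46.3% of the genes that averaged at least 1 FPKM. Values at 24 h are for this reason given in each library for most of the members described, and counts of calls at 24 h with and without the third library. All 9 libraries entered the same fit, which pooled the spread of the 3 times. This library therefore also bore on the SE and p at 6 h against 0 h. Members whose 24 h call ended or began when it was left out are named.

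On average the members held less of the transcriptome after light than before it. Their share of the summed FPKM was 22.7%, 23.8% and 24.1% in the 0 h libraries, 17.2%, 18.8% and 18.5% in the 6 h libraries, and 18.4%, 18.2% and 22.5% in the 24 h libraries. By this measure all 6 libraries taken in light lay below all 3 taken at 0 h, the third 24 h library narrowly. The mean share was 23.6% ± 0.717 at 0 h, with 18.2% ± 0.844 at 6 h and 19.7% ± 2.44 at 24 h (each ± SD, n = 3). The 1002 genes of 100 to 500 FPKM held 25.9% ± 0.263 at 0 h, with 27.9% ± 0.184 at 6 h and 28.2% ± 1.38 at 24 h (each ± SD, n = 3). Of the reads in genes the members held less, 16.9% ± 0.645 at 0 h, with 13.4% ± 0.631 at 6 h and 14.6% ± 2.14 at 24 h (each ± SD, n = 3). By reads the third 24 h library, at 17.1%, lay above the first 0 h library, at 16.2%, so 24 h and 0 h overlapped. The members' transcripts were shorter than most, with a median length of 1122 bases, against 1533 bases over the 25362 tested genes. FPKM divides by length, so length entered the rule that chose them. The genes of 100 to 500 FPKM had a median of 1133.5 bases.

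**Figure D1:**
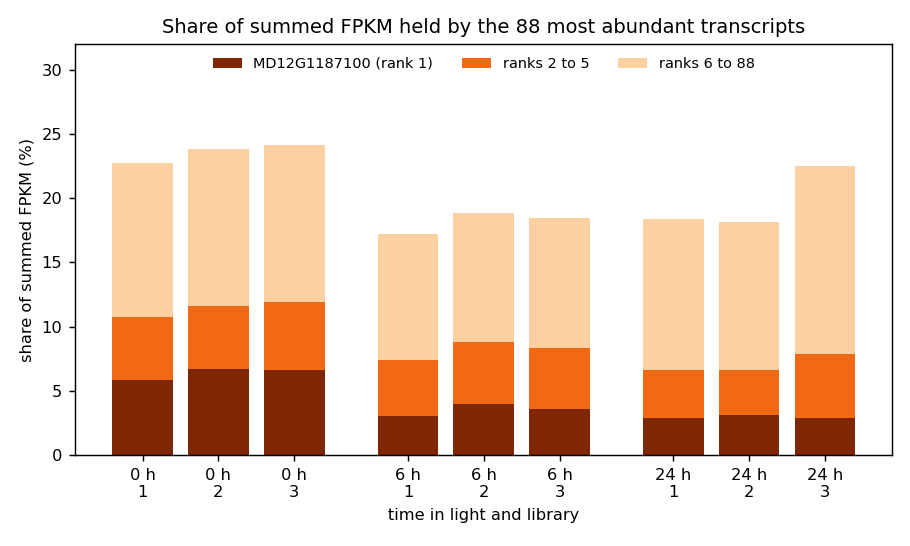
Share of the summed FPKM (percent, bars from 0) held by the 88 members in each library, ordered by time in light and library number. Colours split the bar into MD12G1187100, the members ranked 2 to 5 and those ranked 6 to 88. The bars reach 22.7% to 24.1% at 0 h, 17.2% to 18.8% at 6 h and 18.2% to 22.5% at 24 h, and the darkest segment is largest in the 0 h libraries.

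A single gene made up much of this decrease. MD12G1187100 had a share of 6.42% ± 0.472 at 0 h, with 3.55% ± 0.475 at 6 h and 2.97% ± 0.117 at 24 h (each ± SD, n = 3). The mean share of all members at 6 h minus that at 0 h was -5.37 percentage points, of which MD12G1187100 made up -2.87. At 24 h minus 0 h it was -3.88 points, of which MD12G1187100 made up -3.45. The other 87 members held 17.1% ± 0.288 at 0 h, with 14.6% ± 0.412 at 6 h and 16.7% ± 2.49 at 24 h (each ± SD, n = 3). In the single 24 h libraries these 87 stood at 15.5%, 15.1% and 19.6%, so the third library lay above and the other 2 below every 0 h library.

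Beneath these sums the members moved in both directions. At 6 h minus 0 h the share of 37 members was higher, by 3.81 percentage points in all, and that of 51 was lower, with a sum of -9.19 points. At 24 h minus 0 h 40 members were higher by 4.45 points and 48 were lower, with a sum of -8.33. At 24 h minus 6 h 44 members were higher by 5.38 points and 44 were lower, with a sum of -3.88. The net at 24 h minus 6 h, 1.49 points, rested on the third 24 h library. The first and second 24 h libraries, at 18.4% and 18.2%, lay at about the 6 h mean of 18.2%, and with members chosen anew without the third library the share was 17.0% at 24 h, against 17.7% at 6 h.

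The highest gene of the table at each of the 3 times was MD12G1187100. It had 37368, 45384 and 45216 FPKM at 0 h, 20190, 27246 and 23967 FPKM at 6 h and 20418, 21882 and 25358 FPKM at 24 h. The 0 h libraries were all above those of both later times, and the later times overlapped. At 6 h it was lower than at 0 h, on the log2 scale by -0.85 (SE 0.14, limma adjusted p = 0.000743), and at 24 h by -0.92 (SE 0.14, limma adjusted p = 0.000386). Both differences missed the size limit of 1 that a call needed. The 24 h difference was -1.01 once the third 24 h library was left out, and passed it. With a variance prior that follows the mean level, the adjusted p was 0.472 at 6 h and 0.410 at 24 h. Over all alternatives it ran from 0.000139 to 1 at 6 h and from 4.31e-05 to 1 at 24 h, where the value of 1 came from quantile normalization, which sets the highest value of every library equal.

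MD12G1141500, the second highest member, fell at 6 h and was higher again at 24 h. It stood at 14758, 16344 and 18412 FPKM at 0 h, at 6267, 7981 and 7206 FPKM at 6 h and at 11463, 10235 and 17746 FPKM at 24 h. All 6 h libraries were below all others, and the 24 h libraries overlapped with those of 0 h. Its log2 difference was -1.21 at 6 h against 0 h (SE 0.20, limma adjusted p = 0.000673), a call that was lost with a prior following the mean level (adjusted p = 0.0968, range over the alternatives 9.11e-06 to 0.0968) and with quantile normalization, where the difference was -0.90. At 24 h against 6 h it was 0.84 (limma adjusted p = 0.00573), and 0.61 without the third 24 h library.

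MD16G1160700 and MD13G1161400, at ranks 3 and 5, had their highest mean at 6 h. MD16G1160700 had 6481, 7415 and 7199 FPKM at 0 h, 10175, 11305 and 11567 FPKM at 6 h and 6209.5, 6094 and 10523 FPKM at 24 h. Its 6 h libraries were all above those of 0 h, and the third 24 h library reached into the 6 h range while the other 2 lay below every 0 h library. The difference at 6 h against 0 h was 0.65 (limma adjusted p = 0.0185), under the size limit. Without the third 24 h library the size was the same and the spread smaller (limma adjusted p = 0.000148). MD13G1161400 rose at 6 h, to 6482, 6336 and 7029 FPKM, against 2387, 1908 and 2788 FPKM at 0 h. That log2 difference was 1.5 (SE 0.29, limma adjusted p = 0.00178). At 24 h it stood at 3328, 3226 and 7368 FPKM, with the third library far above the others. Its difference at 24 h against 6 h was -0.62 (limma adjusted p = 0.099) and not called, and it reached -1.01, a call, when the third 24 h library was left out.

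MD03G1210100, the fourth member, varied little. Its values were 7439, 7572 and 6980 FPKM at 0 h, 5627, 6755 and 6116 FPKM at 6 h and 5462, 5383 and 7283 FPKM at 24 h. With all 9 libraries no difference between times passed the adjusted p of 0.05. Its log2 difference was -0.25 at 6 h relative to 0 h (limma adjusted p = 0.137) and -0.29 at 24 h against 0 h (limma adjusted p = 0.0813). Leaving out the third 24 h library gave -0.43 at 24 h against 0 h (limma adjusted p = 0.00314, range over the alternatives 0.00119 to 0.54). In that fit the difference at 6 h against 0 h was unchanged at -0.25 and passed 0.05 as well (limma adjusted p = 0.0243). MD16G1108700, at rank 61, had the smallest range of time means on the log2 scale among the 88, with 595, 589 and 594 FPKM at 0 h, 433, 607 and 539.7 FPKM at 6 h and 501, 548 and 884 FPKM at 24 h.

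The top of the list kept most of its genes while their levels moved, and the order of all 88 members was kept less. Spearman's rank correlation across the members was 0.34 between 6 h and 0 h, 0.20 between 24 h and 0 h and 0.29 between 24 h and 6 h. The rule by itself lowers these values, since a member low at one time had to be high at another. The correlation in other genes was not worked out, so these values describe the list alone. The 10 highest genes at any time shared 8 genes with the 10 highest at each of the other times, and 7 genes were among the 10 highest at all 3 times. Beside MD12G1187100, MD12G1141500, MD16G1160700 and MD03G1210100 these were MD04G1191700, MD05G1028100 and MD15G1098800. The 7 genes held 13.3% ± 0.633 of the summed FPKM at 0 h, with 8.25% ± 0.825 at 6 h and 8.39% ± 0.989 at 24 h (each ± SD, n = 3). In the single 24 h libraries they held 7.77%, 7.87% and 9.53%. MD04G1191700 had 4022, 4966 and 4647 FPKM at 0 h, 2244, 2871 and 2701 FPKM at 6 h and 3899, 4331 and 8019 FPKM at 24 h. MD05G1028100 had 4449.7, 4642 and 4917 FPKM at 0 h, 2347, 2453 and 2391 FPKM at 6 h and 3882, 3567 and 6369 FPKM at 24 h. In both genes the 6 h libraries were below all others, by a log2 difference against 0 h of -0.80 and -0.96, under the size limit.

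**Figure D2:**
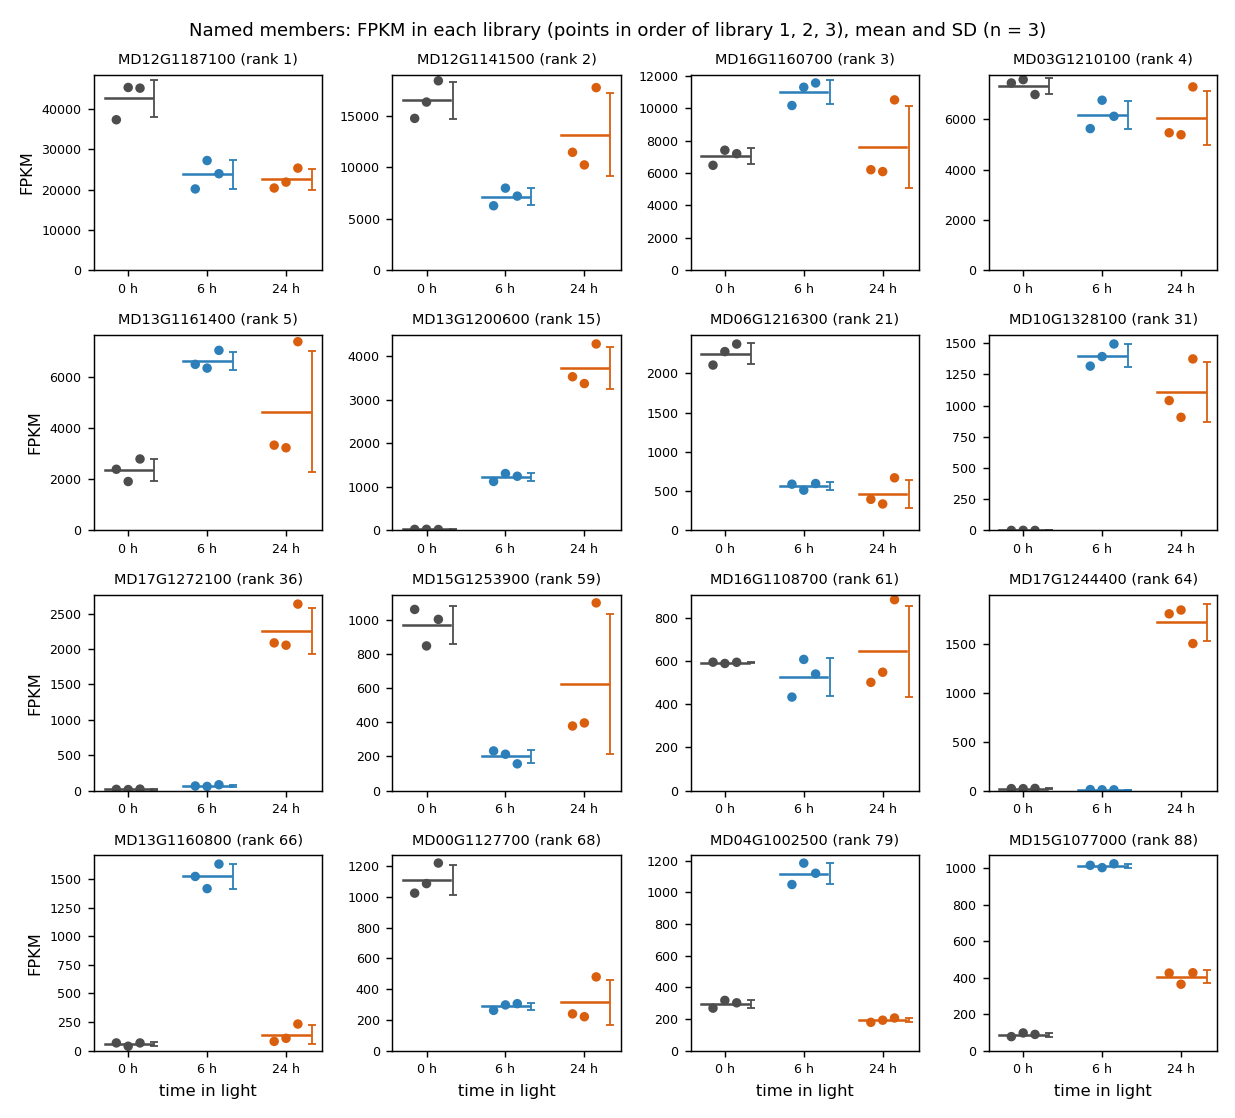
FPKM (linear axis from 0) of the 16 members named by rule, 1 panel each, at 0 h, 6 h and 24 h. Points are the 3 libraries in order, the horizontal line is the mean and the bracket 1 SD (n = 3). MD12G1187100 stands highest at 0 h, MD10G1328100 is near 0 at 0 h and high in every later library, and MD17G1244400 is near 0 at both 0 h and 6 h on its axis. The third 24 h point is the highest of its time in 15 of the 16 panels, the exception being MD17G1244400.

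A call required both a limma p, adjusted over the tested genes, of under 0.05 and a difference of 1 or more on the log2(FPKM + 1) scale, and "rose" and "fell" are used of called members alone. At 6 h against 0 h 21 members rose and 16 fell, where calls in either direction made up 15.5% of all tested genes, 9.36% higher and 6.17% lower. The share called among the members was 42.0%, against 24.3% among the genes of 100 to 500 FPKM. The rule bears on these shares: a member far below 500 FPKM at one time had to be far above it at another. Among the 33 members whose mean was at least 500 FPKM at each of the 3 times, 5 were called, or 15.2%. That choice leaves out members with large changes, so the shares of these 33, here and below, are low in part by how they were chosen. The median log2 difference was -0.18 in the members and 0.01 in the tested genes, and the median of its absolute value was 0.85 in the members and 0.38 in the tested genes.

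At 24 h against 0 h 20 members rose and 9 fell, where 19.8% of the tested genes were called in either direction, 11.9% higher and 7.89% lower. When the third 24 h library was left out, 19 rose and 16 fell, where 2921 of the 25440 tested genes were called higher and 1684 lower. With all libraries 3010 of the 25362 tested genes were called higher and 2000 lower. The 9 that fell were all among the 16, and the 7 others were MD12G1187100, MD15G1253900, MD07G1062300, MD02G1064800, MD05G1244400, MD05G1311800 and MD06G1055700. The member no longer called higher was MD13G1160800. On a scale that gives each library the same summed FPKM, 19 members rose and 15 fell, and this is a scale on which the median difference of the tested genes was -0.15. On it, 2494 of the 25362 tested genes were called higher and 2695 lower. Among the 33 members above 500 FPKM at each time, 2 were called, or 6.06%. The median log2 difference of the members was -0.03, against 0.00 in the tested genes. It was -0.23 in the members, against 0.01 in the tested genes, without the third 24 h library, and -0.22, against -0.15, with equal summed FPKM.

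At 24 h against 6 h 18 members rose and 10 fell, where 16.4% of the tested genes were called in either direction, 8.66% higher and 7.78% lower. Without the third 24 h library 14 rose and 12 fell, and with equal summed FPKM 14 rose and 11 fell. The tested genes had 2197 called higher and 1972 lower with all libraries. They had 1828 and 2431 with equal summed FPKM, and 2122 and 1814 without the third 24 h library. Leaving out that library ended the calls of MD04G1194100, MD08G1004500, MD15G1098800 and MD15G1253900, and MD04G1198800 and MD13G1161400 became called. Among the 33 members above 500 FPKM at each time, 5 were called, or 15.2%. The median log2 difference was 0.17 in the members and -0.01 in the tested genes. The members' median turned to -0.06 without the third 24 h library, to -0.05 with quantile normalization and to -0.01 with equal summed FPKM, where that of the tested genes was -0.15. The comparisons with 0 h share the 0 h libraries, and those with 24 h share the 24 h libraries, so the patterns below are read from each comparison's own calls. Patterns were counted in the members alone, and their share over all tested genes was not worked out. Since the rule also favours large changes, the sizes of the groups below describe the list and are not set against other genes.

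**Figure D3:**
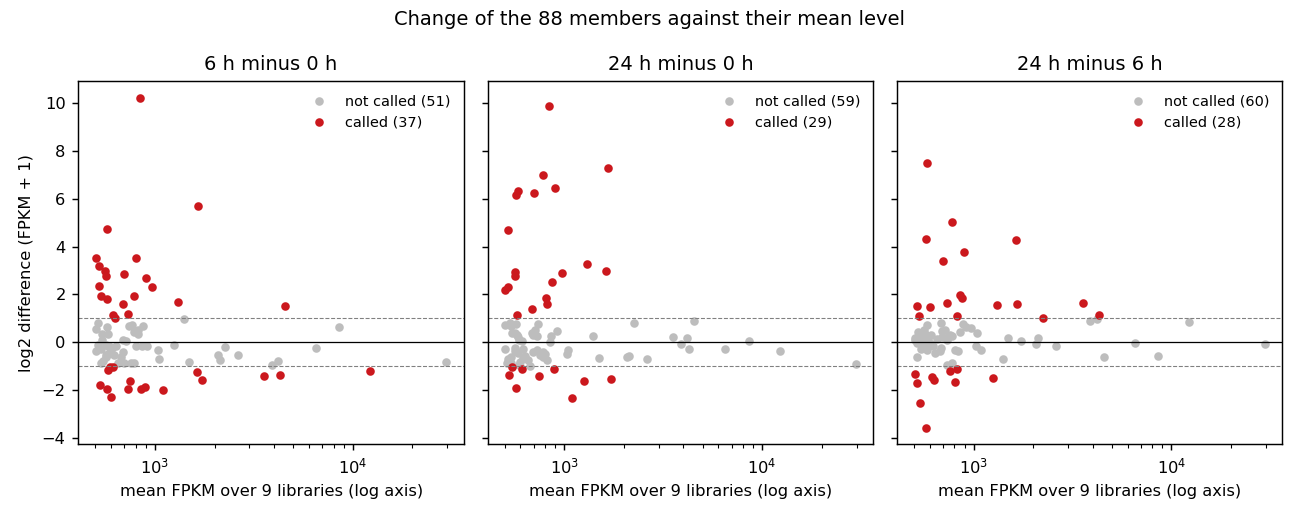
Log2 difference on the log2(FPKM + 1) scale of each of the 88 members against its mean FPKM over the 9 libraries (log axis), for 6 h minus 0 h, 24 h minus 0 h and 24 h minus 6 h. Red points are called members (37, 29 and 28), grey points are not called, and dashed lines mark a log2 difference of 1 in either direction. The largest differences lie toward the left, in members of lower mean level.

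**Figure D4:**
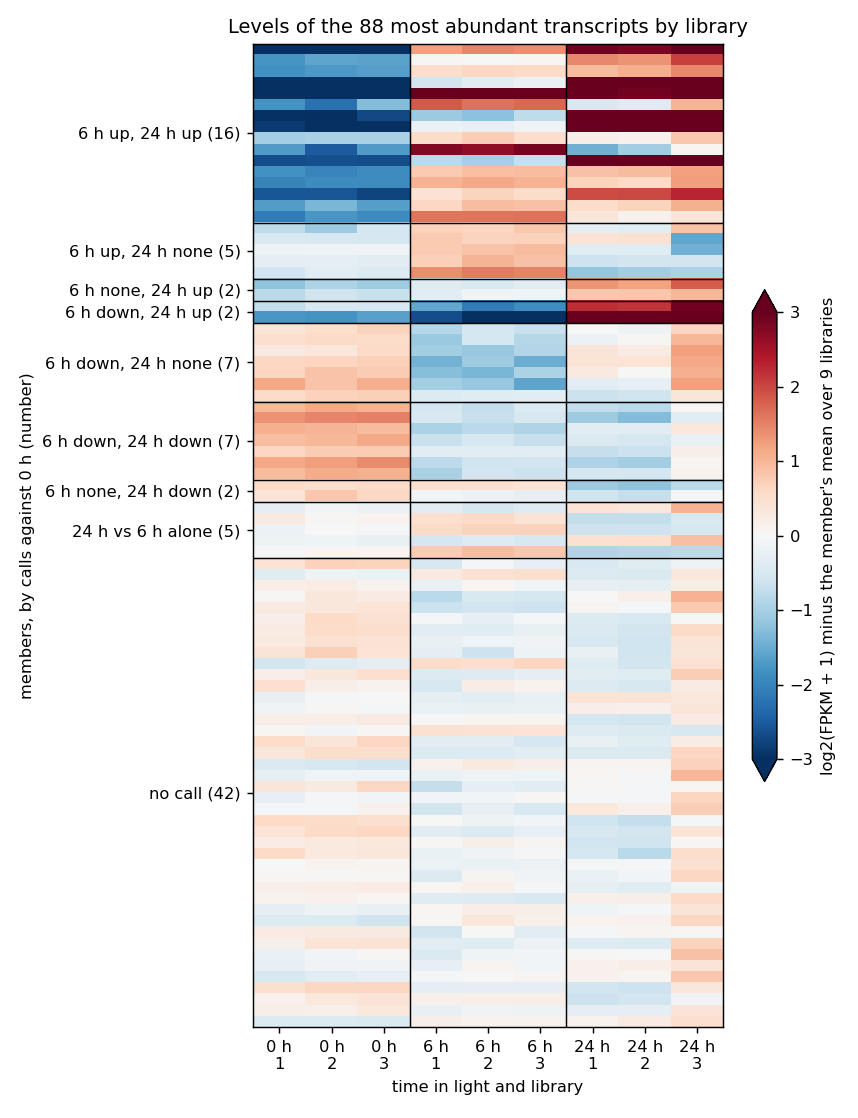
Level of the 88 members (lines of the map) in the 9 libraries (columns), as log2(FPKM + 1) minus the member's mean over the libraries, with colours ending at 3 in both directions. Members are grouped by their calls against 0 h, with the number of members in brackets. The 16 members that rose at both later times are blue at 0 h, and the third 24 h column is redder than its neighbours in most lines.

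The 16 members that rose at both later times started low. Their median level was 73.0 FPKM at 0 h, 872 FPKM at 6 h and 1117 FPKM at 24 h, and their summed share was 0.242% ± 0.00653, 1.93% ± 0.0298 and 2.98% ± 0.265 at these times (each ± SD, n = 3). Between 6 h and 24 h 7 of them rose further and 3 fell. Of the 16, 15 remained in this group without the third 24 h library, all but MD13G1160800.

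MD10G1328100 had the largest log2 difference against 0 h of all tested genes at both later times. It had 0, 0.511 and 0.0495 FPKM at 0 h, 13 reads over the 3 libraries, and 1317, 1393 and 1494 FPKM at 6 h and 1041, 907 and 1375 FPKM at 24 h. All later libraries were far above those of 0 h, and the gene moved to rank 18 of the table at 6 h. Its log2 difference was 10.23 at 6 h (SE 0.19, limma adjusted p = 3.41e-09) and 9.87 at 24 h (limma adjusted p = 1.37e-09). The 24 h difference without the third 24 h library was 9.70. Since its level at 0 h was below the pseudocount of 1, these differences understate the ratio of the FPKM values.

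MD13G1200600 was the next largest among the members in both comparisons. It had 23.4, 24.9 and 20.2 FPKM at 0 h, 1123, 1304 and 1243 FPKM at 6 h and 3525, 3369 and 4277 FPKM at 24 h, with no overlap between any times. The log2 difference was 5.68 at 6 h (limma adjusted p = 5.38e-09) and 7.28 at 24 h (limma adjusted p = 1.09e-09), and 1.60 at 24 h against 6 h (limma adjusted p = 4.39e-06). Its rank in the table was 5131 at 0 h, 19 at 6 h and 11 at 24 h.

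MD17G1272100, MD06G1071600, MD04G1003000, MD04G1003400 and MD08G1003700 rose at 6 h and rose again by 24 h. MD17G1272100 had 16.8, 13.6 and 20.4 FPKM at 0 h, 64.6, 58.2 and 81.9 FPKM at 6 h and 2085, 2052 and 2633 FPKM at 24 h. Its log2 difference was 1.95 at 6 h relative to 0 h (limma adjusted p = 1.42e-05) and 5.03 at 24 h against 6 h (SE 0.18, limma adjusted p = 3.22e-08). The larger step was thus the later one. MD06G1071600 had 21.3, 21.9 and 21.2 FPKM at 0 h, 79.0, 69.8 and 86.0 FPKM at 6 h and 1382, 1377 and 2093 FPKM at 24 h. MD08G1003700 had 43.9, 44.2 and 38.4 FPKM at 0 h, 356, 424 and 387 FPKM at 6 h and 1035, 1057 and 1290.5 FPKM at 24 h. The log2 difference at 24 h against 6 h was 4.33 in MD06G1071600 and 1.53 in MD08G1003700. Of these 2, MD08G1003700 took its larger step by 6 h, where its log2 difference against 0 h was 3.18.

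MD11G1314000 also rose in both steps. It had 256, 294 and 284 FPKM at 0 h, 897, 885 and 912 FPKM at 6 h and 2362, 2226 and 3648 FPKM at 24 h. Its log2 difference was 1.69 at 6 h relative to 0 h and 1.57 at 24 h against 6 h (limma adjusted p = 4.33e-05). MD06G1081300 had 203, 217 and 227 FPKM at 0 h, 1036, 1108 and 1080.2 FPKM at 6 h and 1386, 1524 and 1946 FPKM at 24 h, and its later step of 0.58 was under the size limit.

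Of the 16, 6 had no call between 24 h and 6 h, namely MD06G1081300, MD10G1328100, MD02G1177700, MD04G1125600, MD13G1141700 and MD16G1130800. MD02G1177700 had 693, 675 and 1078 FPKM at 24 h, against 905, 1027 and 889 FPKM at 6 h, and MD13G1141700 had 634, 607 and 954 FPKM at 24 h, against 831, 878 and 829.5 FPKM at 6 h. In these 2 and in MD10G1328100 the first and second 24 h libraries were below every 6 h library. Without the third 24 h library the log2 difference at 24 h against 6 h was -0.46 in MD02G1177700, -0.45 in MD13G1141700 and -0.53 in MD10G1328100, under the size limit. MD04G1125600 had 128, 159 and 130.3 FPKM at 0 h, 628, 773 and 749.5 FPKM at 6 h and 601, 648 and 858 FPKM at 24 h. MD16G1130800 had 116, 103 and 110.4 FPKM at 0 h, 708, 769.8 and 773 FPKM at 6 h and 759, 786 and 968 FPKM at 24 h. In both genes all libraries of the later times were above those of 0 h, and the difference at 24 h against 6 h was -0.04 in MD04G1125600 (limma adjusted p = 0.841) and 0.15 in MD16G1130800 (limma adjusted p = 0.284).

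MD13G1160500, MD13G1160800 and MD15G1077000 rose at 6 h and fell between 6 h and 24 h. MD13G1160800 had 67.9, 38.9 and 67.8 FPKM at 0 h, 1523, 1417 and 1631 FPKM at 6 h and 81.2, 108 and 233 FPKM at 24 h. Its 6 h libraries were far above all others, with a log2 difference of 4.73 at 6 h relative to 0 h (limma adjusted p = 4.05e-06) and -3.57 at 24 h against 6 h (limma adjusted p = 2.33e-05). Against 0 h the difference at 24 h was 1.16 (limma adjusted p = 0.018), and it missed the size limit without the third 24 h library, at 0.72, without the second 0 h library, at 0.89, with equal summed FPKM, at 0.97, and with quantile normalization, at 0.81. MD13G1160500 had 144, 105 and 202 FPKM at 0 h, 1792, 1570.3 and 1676 FPKM at 6 h and 365, 383 and 1015 FPKM at 24 h. The third 24 h library was far above the other 2 in it, and the 24 h level stayed between those of the other times in all 3.

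MD15G1077000 was the last member inside the limit, with a mean of 503 FPKM. It had 77.1, 97.3 and 89.3 FPKM at 0 h, 1016, 1003 and 1024 FPKM at 6 h and 425, 364 and 427 FPKM at 24 h. Its libraries did not overlap between any times, and the log2 difference was 3.52 at 6 h relative to 0 h (limma adjusted p = 2.6e-08), 2.20 at 24 h relative to 0 h (limma adjusted p = 2.02e-07) and -1.32 at 24 h against 6 h (limma adjusted p = 7.4e-06). The first gene outside was MD01G1210900, with a mean of 496 FPKM and with 281, 308 and 315 FPKM at 0 h, 652, 614 and 646 FPKM at 6 h and 453, 444 and 755 FPKM at 24 h. Both genes had their highest mean at 6 h.

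MD17G1244400 and MD15G1428700 fell at 6 h and then rose far above their 0 h level. MD17G1244400 had 19.7, 19.3 and 21.6 FPKM at 0 h, 9.94, 7.78 and 7.52 FPKM at 6 h and 1803, 1842 and 1500.1 FPKM at 24 h. It stood at rank 12952 of the table at 6 h and at rank 21 at 24 h. The log2 difference was -1.18 at 6 h against 0 h (limma adjusted p = 4.5e-05), which shrank to -0.91 with a pseudocount of 5, and 7.51 at 24 h against 6 h (SE 0.13, limma adjusted p = 2.47e-09). MD15G1428700 had 454, 548 and 534 FPKM at 0 h, 258, 177 and 207 FPKM at 6 h and 3507, 3376 and 5633 FPKM at 24 h. Its libraries did not overlap between any times, and its log2 difference was -1.27 at 6 h relative to 0 h (limma adjusted p = 0.000709) and 4.25 at 24 h against 6 h (limma adjusted p = 2.03e-07).

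MD03G1295100 and MD11G1121400 were called higher than at 0 h at 24 h alone. MD03G1295100 had 279, 338 and 310.1 FPKM at 0 h, 504, 470.2 and 516 FPKM at 6 h and 1634, 1483 and 2282 FPKM at 24 h, a log2 difference of 2.52 at 24 h against 0 h (limma adjusted p = 8.35e-07). MD11G1121400 had 420.1, 487 and 459 FPKM at 0 h, 584, 677 and 668 FPKM at 6 h and 1294, 1316 and 1474 FPKM at 24 h, a difference of 1.58 (limma adjusted p = 1.24e-06). In both genes the 6 h libraries were already above those of 0 h, by 0.69 in MD03G1295100 and 0.50 in MD11G1121400, under the size limit.

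Members that were low before light made up a larger part of the total at each later time. At 0 h 8 members averaged under 50 FPKM, which were MD10G1328100, MD13G1200600, MD17G1272100, MD06G1071600, MD04G1003000, MD04G1003400, MD08G1003700 and MD17G1244400. Their means ran from 0.187 to 42.2 FPKM at 0 h, from 8.42 to 1402 FPKM at 6 h and from 1107 to 3724 FPKM at 24 h. Together they held 0.0263% ± 0.00151 of the summed FPKM at 0 h, with 0.526% ± 0.0250 at 6 h and 2.09% ± 0.0770 at 24 h (each ± SD, n = 3). The 24 h libraries stood at 2.05%, 2.05% and 2.18%, so the third library lay close to the others here. These genes entered the list through their later levels, so that they rose is part of how they were chosen.

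The 7 members that fell at both later times were MD00G1127700, MD02G1258400, MD04G1139000, MD06G1216300, MD09G1075400, MD15G1407600 and MD16G1024700. Their median level was 1317 FPKM at 0 h, 421 FPKM at 6 h and 467 FPKM at 24 h, and their summed share was 1.68% ± 0.0140, 0.512% ± 0.0193 and 0.505% ± 0.0884 at these times (each ± SD, n = 3). Their log2 differences at 24 h against 6 h ran from -0.34 (MD06G1216300) to 0.76 (MD15G1407600), under the size limit. All 7 stayed in the group without the third 24 h library.

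MD06G1216300 fell furthest at 24 h. It had 2105, 2277 and 2373 FPKM at 0 h, 589, 512 and 597 FPKM at 6 h and 396, 337 and 669.6 FPKM at 24 h. Every later library was far below every 0 h library. The log2 difference was -1.99 at 6 h (SE 0.22, limma adjusted p = 4.94e-05) and -2.33 at 24 h (limma adjusted p = 1.41e-05), and -2.62 at 24 h without the third library. MD00G1127700 had 1025, 1087 and 1221 FPKM at 0 h, 262, 298 and 306 FPKM at 6 h and 239.6, 221 and 480.2 FPKM at 24 h. Its difference was -1.94 at 6 h (limma adjusted p = 0.000159) and -1.91 at 24 h (limma adjusted p = 0.000153), and -2.26 without the third library.

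MD16G1024700 was the most abundant of the 7, with 2894, 3285 and 3077 FPKM at 0 h, 1022, 908 and 1125 FPKM at 6 h and 889, 849 and 1511 FPKM at 24 h. MD04G1139000 had 1236, 1284 and 1429.8 FPKM at 0 h, 409.7, 452 and 401 FPKM at 6 h and 479.8, 447 and 553 FPKM at 24 h. In MD04G1139000 the third 24 h library lay near the others, and its 24 h difference against 0 h of -1.42 had the smallest adjusted p of the 7 (limma adjusted p = 3.82e-06). The other 3 had log2 differences at 24 h against 0 h of -1.11 (MD02G1258400), -1.36 (MD09G1075400) and -1.14 (MD15G1407600).

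A further 7 members fell at 6 h and were not called at 24 h. Their summed share was 4.56% ± 0.250 at 0 h, with 1.80% ± 0.162 at 6 h and 3.40% ± 0.784 at 24 h (each ± SD, n = 3), and MD12G1141500 held the largest part of it. The others were MD15G1098800, MD11G1246800, MD00G1125400, MD11G1109200, MD15G1253900 and MD07G1062300. Between 6 h and 24 h 5 of the 7 rose, the exceptions being MD12G1141500 and MD07G1062300. Without the third 24 h library 5 of the 7 remained in the group, while MD15G1253900 and MD07G1062300 were called lower at 24 h as well.

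MD00G1125400 had 1078, 1095 and 1166 FPKM at 0 h, 265, 338 and 252 FPKM at 6 h and 932, 932 and 1583 FPKM at 24 h. The 6 h libraries were far below all others. Its log2 difference was -1.97 at 6 h relative to 0 h (limma adjusted p = 3.34e-05) and 1.97 at 24 h against 6 h (limma adjusted p = 3.15e-05). MD11G1246800 had 3737, 3946 and 4647 FPKM at 0 h, 1524, 1409 and 1707 FPKM at 6 h and 4057, 3707 and 7318 FPKM at 24 h, and MD15G1098800 had 5513, 5785 and 5692 FPKM at 0 h, 1794, 2659 and 2122 FPKM at 6 h and 3422, 3929 and 7677 FPKM at 24 h. In MD15G1098800 the first and second 24 h libraries lay between the other times and the third above all of them. Its call at 24 h against 6 h (1.12, limma adjusted p = 0.00694) was lost without the third library.

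MD15G1253900 had the largest fall at 6 h among the members. It had 1062, 848 and 1003 FPKM at 0 h, 232, 213 and 156 FPKM at 6 h and 378, 396 and 1100 FPKM at 24 h. The third 24 h library was above every 0 h library while the other 2 were below all of them, the widest such gap among the 88. At 6 h against 0 h the log2 difference was -2.28 (SE 0.36, limma adjusted p = 0.000553). At 24 h against 0 h it was -0.82 (limma adjusted p = 0.0767) with all libraries and -1.32 without the third, which was called. At 24 h against 6 h it was 1.47 (limma adjusted p = 0.0076) with all libraries and 0.97 without the third, under the size limit.

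A rise at 6 h with no call at 24 h was found in 5 members. They were MD13G1161400, MD04G1002500, MD09G1167700, MD07G1228900 and MD02G1148300, and their summed share was 0.617% ± 0.0660 at 0 h, with 1.62% ± 0.0558 at 6 h and 0.808% ± 0.133 at 24 h (each ± SD, n = 3). MD13G1161400 carried the sum, with 0.356%, 0.988% and 0.592% at these times. The other 4 held 0.261% ± 0.00652, 0.631% ± 0.0149 and 0.216% ± 0.0869 (each ± SD, n = 3). That their mean share at 24 h lay below that at 0 h rested on the third 24 h library. In it MD02G1148300 had 221 FPKM, against 872 and 887 FPKM in the others, and MD07G1228900 had 205 FPKM, against 439 and 435 FPKM. MD04G1002500 had 269, 318 and 302 FPKM at 0 h, 1049, 1184 and 1121 FPKM at 6 h and 179, 193 and 207 FPKM at 24 h. Its libraries did not overlap between any times. The log2 difference was 1.91 at 6 h relative to 0 h (limma adjusted p = 4.98e-07), -2.53 at 24 h relative to 6 h (limma adjusted p = 6.43e-08) and -0.62 at 24 h against 0 h (limma adjusted p = 0.000644). MD09G1167700 had 465, 465 and 446 FPKM at 0 h, 911, 1124 and 1026 FPKM at 6 h and 363, 379 and 373 FPKM at 24 h, and its 24 h libraries lay close together and below those of 0 h.

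MD02G1148300 and MD07G1228900 were the members whose level in the third 24 h library was lowest relative to the other 2. MD02G1148300 had 477, 463 and 461 FPKM at 0 h, 1115, 1029.8 and 1046 FPKM at 6 h and 872, 887 and 221 FPKM at 24 h, and the third library was at 0.251 of the mean of the other 2. MD07G1228900 had 495, 511 and 521 FPKM at 0 h, 969, 1019 and 1089 FPKM at 6 h and 439, 435 and 205 FPKM at 24 h, a ratio of 0.469. These 2 ran against most members, which were higher in that library.

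MD10G1075500 and MD13G1167600 were called lower than at 0 h at 24 h and not at 6 h. MD10G1075500 had 1698, 1604 and 1680 FPKM at 0 h, 1580.2, 1596 and 1478 FPKM at 6 h and 524, 483 and 640.2 FPKM at 24 h. The libraries of 24 h were all far below those of 0 h and 6 h, a log2 difference of -1.60 at 24 h relative to 0 h (limma adjusted p = 1.93e-06) and -1.51 at 24 h against 6 h (limma adjusted p = 3.52e-06). MD13G1167600 had 673, 896 and 794 FPKM at 0 h, 488, 451 and 437 FPKM at 6 h and 339, 319.7 and 500.4 FPKM at 24 h. It was already lower at 6 h, by -0.77 (limma adjusted p = 0.00459), under the size limit, and its difference at 24 h against 6 h was -0.27 (limma adjusted p = 0.216). Without the third 24 h library this group held 7 members, these 2 among them.

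The remaining calls were between 24 h and 6 h alone, in 5 members. MD05G1143500 had 449, 476 and 481 FPKM at 0 h, 789, 873 and 808 FPKM at 6 h and 248, 254 and 262 FPKM at 24 h, so that the 6 h libraries were above and the 24 h libraries below all 0 h libraries. The log2 difference at 24 h against 6 h was -1.69 (limma adjusted p = 2.27e-07). MD17G1117800 and MD00G1148600 had the same order, with log2 differences at 24 h against 6 h of -1.22 and -1.12. MD08G1004500, with 2822, 2637 and 4391 FPKM at 24 h, against 1699.8, 1471 and 1617 FPKM at 6 h, and MD04G1194100 rose between these times, and both calls were lost without the third 24 h library.

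The 42 members with no call in any comparison held 15.2% ± 0.577 of the summed FPKM at 0 h, with 11.1% ± 0.695 at 6 h and 9.99% ± 1.04 at 24 h (each ± SD, n = 3), and MD12G1187100 was one of them. The 46 called members held 8.32% ± 0.288, 7.12% ± 0.159 and 9.69% ± 1.4 at the same times (each ± SD, n = 3). In the single 24 h libraries the 42 held 9.35%, 9.42% and 11.2%, and the 46 held 9.01%, 8.76% and 11.3%. No call does not mean no difference: at an adjusted p under 0.05 alone, 33 members were higher and 33 lower at 6 h against 0 h, where 27.7% and 23.1% of the tested genes were, or 50.8% in all. Leaving out the third 24 h library gave 34 higher and 42 lower members in that comparison. Over the tested genes it gave 8479 and 7768 of 25440, against 7025 and 5869 of 25362 with all libraries. The calls with the size limit stayed at 21 and 16. For 24 h against 0 h 31 members were higher and 29 lower (31.2% and 27.5% of the tested genes, 58.7% in all). For 24 h against 6 h 29 were higher and 16 lower (25.9% and 23.5%, 49.3% in all). The libraries of 6 h and 0 h did not overlap in 79 members (68.6% of the tested genes), those of 24 h and 0 h in 64 (64.2%), and those of 24 h and 6 h in 49 (59.3%).

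Membership depended on the time. By the mean at a single time, 85 genes reached 500 FPKM at 0 h, of which 59 were members, 92 at 6 h, of which 61 were members, and 120 at 24 h, of which 68 were members. A total of 103 genes that were not members reached it at some time. Among the members, 33 reached it at all 3 times, 34 at 2 times and 21 at 1 time, of which 8 at 0 h, 5 at 6 h and 8 at 24 h. In 27 members every library was at 500 FPKM or more. The highest mean was at 0 h in 37 members, at 6 h in 19 and at 24 h in 32.

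The spread between libraries was wide at 24 h. The median coefficient of variation of the members was 7.13% at 0 h, 6.30% at 6 h and 26.3% at 24 h, and that of all tested genes 8.93%, 7.99% and 15.9% at these times. The third 24 h library stood at a median of 1.53 times the mean of the other 2, with 49 members above 1.5 times and 12 above 2 times. In the 0 h and 6 h libraries the same median ratio was between 0.923 and 1.04. The genes of 100 to 500 FPKM stood at 1.33 in the third 24 h library and all tested genes at 1.02, so the excess was larger in genes of higher level. With each library set to the same summed FPKM, the members' ratio was 1.24, and 64 of the 88 were still highest in that library, as were 21.0% of the tested genes. On that scale the genes of 100 to 500 FPKM stood at 1.07 and all tested genes at 0.825. The members were chosen by a mean that includes this library, which favours genes high in it. What set this library apart was not tested.

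**Figure D5:**
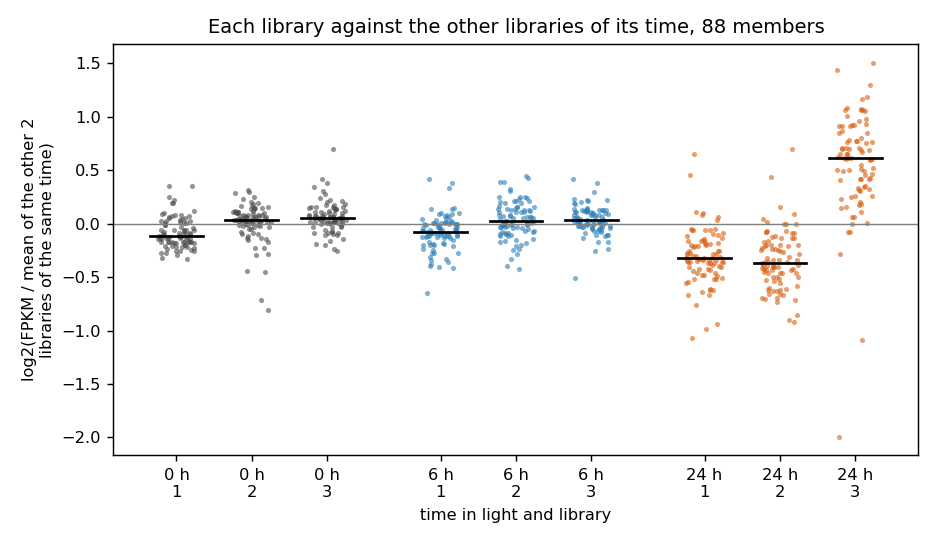
Log2 ratio of each library's FPKM to the mean of the other 2 libraries of its time, for the 88 members (points, spread sideways at random), with the median of the points as a black line. MD10G1328100, near 0 at 0 h, is not drawn there. The medians of the 0 h and 6 h libraries lie near 0, at ratios of 0.923 to 1.04, while the third 24 h library stands at 1.53 and the other 24 h libraries at 0.798 and 0.776.

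Some members stood close to each other in the order of the table, an observation made after the values were seen. Genes this close can be near-identical copies, and how reads were split between such copies is not given in the sources used here, so their single levels are uncertain. MD04G1003000 and MD04G1003400, 4 lines apart, had much the same course: MD04G1003000 averaged 26.4 FPKM at 0 h, 176 FPKM at 6 h and 2485 FPKM at 24 h. MD04G1003400 averaged 24.0, 178 and 1900.3 FPKM at these times. MD04G1003000 measured 2736 bases and MD04G1003400 1515 bases, and whether any of these neighbours are copies was not tested. MD04G1002500, 5 lines before them, had the other course given above, highest at 6 h. MD13G1160500, MD13G1160800 and MD13G1161400, 3 and 6 lines apart, all had their highest mean at 6 h. MD13G1167500 and MD13G1167600 stood on adjoining lines, as did MD05G1311800 and MD05G1311900, and all 4 had their highest mean at 0 h. MD08G1003700 and MD08G1004500, 8 lines apart, both had theirs at 24 h.

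In length the members ran from 242 to 2908 bases, as worked out from the whole reads behind the FPKM values. Under 500 bases were 10 of them, or 11.4%, against 5.97% of the tested genes. The genes of 100 to 500 FPKM were also shorter than most, with a median of 1133.5 bases, against 1122 bases in the members. Length is part of FPKM and so entered the choice of both sets. The 5 highest members measured 770 bases (MD12G1187100), 794 bases (MD12G1141500), 861 bases (MD16G1160700), 1821 bases (MD03G1210100) and 905 bases (MD13G1161400).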

How the data were processed

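Gene levels in peel of 9 libraries, 3 each at 0 h, 6 h and 24 h of light, were taken from the deposited table of FPKM. Reads were aligned with HISAT2 and FPKM estimated with Cufflinks as far as the submitters' processing notes name these tools. Versions, build, annotation, strand setting and filters were not given in the sources used here. Locus identifiers were compared with the RefSeq gene table of assembly GDT2T_hap1 (51804 genes), and 0 matched, so the gene lists and tissue markers planned by gene description were not run and no sequence is shown.

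Whole reads and gene lengths were worked out from the steps between low FPKM values: 100% of the values above 0 came within 0.1 of a whole number of reads, and the rebuilt FPKM differed from the deposited FPKM by a relative 6.91e-08 at most. The factors by which the authors had divided were 16.2 to 19.0 M per library. Intervals from counting are not given.

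Tests used limma 3.58.1 in R 4.3.3 on log2(FPKM + 1), with 1 mean per time, all 9 libraries in 1 fit, no intensity trend in the variance prior, and the 25362 genes that averaged 1 FPKM or more. The trend was left out because an earlier fit with it gave the highest gene a standard error far above its replicate spread. A call needed a p under 0.05 after Benjamini-Hochberg adjustment over these genes, with a log2 difference of 1 or more in either direction. All 88 members passed the filter.

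Members named with values by rule were the 5 highest, the 2 largest rises and the 2 largest falls in each comparison among called members without overlap between the times, the 2 with the smallest range of time means, and the genes on either side of the limit of 500 FPKM. Further members are described as examples of their group. The members, the rule, the lists and the tests were chosen with earlier results of these data known. Same replicate numbers in the labels did not pair the libraries, so no block was used. Python 3.11.15 and matplotlib 3.10.9 were used for summaries and figures.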

Additional observations from a re-analysis of the deposited data

Results flagged for a closer look

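The changes at 24 h and at 6 h, each against 0 h, differed in some members, which the comparison of 24 h with 6 h tests directly. By limma, 18 members rose and 10 fell at 24 h against 6 h, where 2197 of the 25362 tested genes were called higher and 1972 lower. Among the named members the log2 difference at 24 h against 6 h was 7.51 in MD17G1244400, 5.03 in MD17G1272100, 1.60 in MD13G1200600 and 1.47 in MD15G1253900, all higher at 24 h. It was -3.57 in MD13G1160800, -2.53 in MD04G1002500 and -1.32 in MD15G1077000, all lower at 24 h. Without the third 24 h library 14 members were called higher and 12 lower, and MD15G1253900 was no longer called, at 0.97. Of the 25440 tested genes 2122 were then called higher and 1814 lower. Each time had 3 libraries, and Dixon's test for an outlying sample was not applied.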

How the results depend on the processing

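Of 185 alternative values of the counts and shares, 158 stayed within the set bounds and 27 moved. A count was judged by its ratio to the main count, and a share by the SD between the libraries of its time. At an adjusted p under 0.05 without the size limit, 33 members were higher and 33 lower at 6 h relative to 0 h, 31 and 29 at 24 h relative to 0 h, and 29 and 16 at 24 h relative to 6 h. The 9 members lower at 24 h against 0 h became 15 with equal summed FPKM, 14 with quantile normalization, 16 without the third 24 h library, and 19 without that library and with equal summed FPKM, a setting chosen after seeing the data. The tested genes called lower numbered 2000 in the main analysis, and 2695, 2325, 1684 and 1948 under these settings in the same order. Limma-voom on the recovered reads, also chosen after seeing the data, gave the member counts of the main analysis in all 3 comparisons. The members' share at 0 h, 6 h and 24 h was 17.9%, 12.1% and 13.1% for a limit of 1000 FPKM, 33.3%, 29.1% and 30.9% for 250 FPKM, 17.1%, 14.6% and 16.7% without the highest gene, and 16.9%, 13.4% and 14.6% of the reads. Members chosen by their median, 69 genes, held 22.1% at 0 h, 16.7% at 6 h and 17.6% at 24 h. The 24 h value, against 19.7% in the main analysis, counted as within the bounds because the SD at 24 h was 2.44.

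With 1 library left out, the members numbered 79 to 90 and their share was 22.99% to 23.8% at 0 h, 17.1% to 18.4% at 6 h and 17.0% to 19.9% at 24 h. The counts of higher and lower members then ran from 19 to 21 and 16 to 16 at 6 h relative to 0 h, 19 to 21 and 7 to 16 at 24 h relative to 0 h, and 14 to 21 and 10 to 12 at 24 h relative to 6 h. The value of 16 at 24 h against 0 h came from leaving out the third 24 h library.

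Of 960 alternative log2 differences of the 16 named members, 914 kept direction and call, 4 came to 0 with quantile normalization, 10 lost the call, 15 gained one and 17 changed sign, none of them called in the main analysis. The last were, at 24 h against 0 h, MD16G1160700 at -0.12 with equal summed FPKM, -0.19 without the third 24 h library and -0.28 with both, and MD16G1108700 at -0.11, -0.18 and -0.26 under these settings and -0.19 with quantile normalization. At 24 h against 6 h they were MD00G1127700 at -0.14 with equal summed FPKM, -0.23 with quantile normalization, -0.04 without the first 6 h library, -0.32 without the third 24 h library and -0.40 with both, MD16G1108700 at -0.066 with both, MD12G1187100 at 0.030 without the second 6 h library, and MD03G1210100 at 0.03, 0.03 and 0.04 without the second 6 h, first 24 h and second 24 h library. With 1 library left out, the differences ran from -0.19 to 0.20 in MD16G1160700 and from -0.18 to 0.23 in MD16G1108700 at 24 h relative to 0 h, and at 24 h relative to 6 h from -0.32 to 0.23 in MD00G1127700, from -0.19 to 0.030 in MD12G1187100 and from -0.18 to 0.037 in MD03G1210100. For each of these the cause was not tested.

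A replicate block left the counts at 21 and 16, 20 and 9, and 18 and 10. Libraries with the same number did not deviate together, with correlations across genes of -0.0627 to 0.0762 over 9 pairs, against -0.0971 to 0.0949 over 18 pairs with different numbers. Negative binomial models of the recovered reads were not run, since FPKM are the deposited unit. Depth limits the ratio of MD10G1328100, which had 13 reads at 0 h.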
